A study of Mus musculus with 6 samples.

Results

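The genes described here encode the subunits of the oxidative phosphorylation system, the 4 respiratory chain complexes and the ATP synthase of the inner mitochondrial membrane. They were measured by RNA sequencing in acinar cells of the pancreas, which make and secrete digestive enzymes, from adult mice. Members were taken by gene symbol among protein-coding genes: subunit genes of complex I (Ndufa, Ndufb, Ndufc, Ndufs and Ndufv), complex II (Sdha to Sdhd), complex III (Uqcr genes and Cyc1), complex IV (Cox4 to Cox8) and ATP synthase (Atp5), with Cycs and the mt-encoded genes. Of 55414 genes in each count table, 101 were members, 88 of them in the nucleus and 13 in the mitochondrial DNA. The symbol patterns brought in 21 other genes, 8 assembly factors and 13 genes that are not protein coding, and these were dropped. Symbols were those of the older annotation used here, in which ATP synthase genes are written Atp5a1, Atp5b or Atp5g1, and subunit genes named otherwise in it, such as Usmg5, are not members.

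The 6 libraries came from untreated animals that all carried a Cre recombinase driven by the Pdx1 promoter, which is active in the progenitors of all pancreatic epithelium. The 3 control libraries had the genotype Pdx1Cre;Trip12+/+ and the 3 knockout libraries had Pdx1Cre;Trip12fl/fl, in which Cre deletes floxed Trip12, a ubiquitin ligase gene of the HECT family. The labels call the libraries biological replicates numbered 1 to 3 in each group. Each label also carries a code of its own, whose meaning is not given. The labels do not say that the codes name animals, so the p-values measure the spread between these preparations. Cells without Pdx1-driven Cre activity keep Trip12, and the study asked how the loss of Trip12 alters gene expression in adult acinar cells.

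Oxidative phosphorylation passes electrons from NADH through complex I, and from succinate through complex II, to complex III, cytochrome c and complex IV, where oxygen is reduced. Complexes I, III and IV pump protons across the inner membrane, and ATP synthase uses the returning protons to make ATP. Complex II is encoded wholly in the nucleus, while the other complexes join nuclear subunits with a few core subunits that are transcribed and translated inside mitochondria. Acinar cells spend much ATP on the synthesis, packaging and secretion of digestive enzymes.

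Gene counts per library ran from 31019500 to 34041901. Trip12 had a level of 29.0, 22.3 and 26.4 CPM (counts relative to library size, scaled with TMM) in the 3 controls and 14.4, 14.7 and 12.98 in the knockouts, and it fell by 0.89 on the log2 scale (SE 0.14, edgeR adjusted p = 0.0256). Digestive enzyme genes held 78.1% ± 1.06 (SD, n = 3) of gene counts in control and 74.1% ± 0.167 in knockout, and the summed level of 12 acinar markers ran from 444309 to 590319 CPM in control and from 386555 to 394052 CPM in knockout. Control replicate 1 stood apart from the other controls. It had 3 counts of Xist, the RNA of the inactive X chromosome, as the knockouts had 4 or 5, while control replicates 2 and 3 had 2118 and 2440. Summed CPM of 12 leukocyte markers was 97.3 in control replicate 1 against 24.8 and 21.6 in replicates 2 and 3, and 71.3, 18.04 and 70.2 in the knockouts. Summed CPM of 10 stromal and endothelial markers ran from 29.7 to 130 in control and from 37.5 to 151 in knockout, with the highest control value again in replicate 1. Summed CPM of 9 islet markers was 464, 457 and 356 in control and 911, 657 and 245 in knockout. None of the genes in these lists was at 0 in all libraries. Their part in the results below was not tested, and in such bulk samples fewer cells of a type cannot be told apart from less RNA per cell.

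No oxidative phosphorylation gene was called different between knockout and control. Of the 92 members tested, 79 nuclear and 13 mt-encoded, none had a Benjamini-Hochberg adjusted p-value under 0.05 by the F test of edgeR, against 0.945% of all 13115 genes tested (0.465% higher and 0.48% lower). The lowest adjusted p-values were 0.146 for the nuclear gene Ndufa3 and 0.152 for mt-Cytb. Without adjustment, 4 nuclear members had p under 0.05 with a higher level in knockout and 4 with a lower level, against 8.45% and 8.27% of all genes, and 3 mt-encoded members had a lower level. With the replicate number as a block, the background was 5.99% (3.4% higher and 2.58% lower) and again no member was called, with lowest adjusted p-values of 0.0658 (Ndufb3) and 0.0925 (mt-Cytb). A missed threshold does not show that levels were equal, and the sizes and errors of the differences follow.

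The mt-encoded genes lay on the lower side in knockout with TMM scaling, but not when libraries were scaled by their totals alone. The log2 fold change was below 0 for 11 of 13 genes and the median was -0.27 with TMM, beside 0.02 over all genes tested, whereas with library totals 9 of 13 were above 0 and the median was 0.14. That change of scaling moved the median of all genes by 0.41, and relative to all genes the mt-encoded median was -0.29 under both. Groups did not overlap, with knockout lower, for 4 of the 13 genes (30.8%), against 10.9% of all genes, and for no gene with knockout higher, against 12%. DESeq2's Wald test called 2 mt-encoded genes lower, mt-Cytb (-0.55, adjusted p = 4.49e-05) and mt-Co1 (-0.40, adjusted p = 0.0391), and it called 2.55% of all 13115 genes fitted lower.

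mt-Cytb encodes cytochrome b, the only mt-encoded subunit of complex III. Its level was 2201, 1857 and 1984 CPM in the controls, in the order of replicates 1 to 3 that is kept throughout, and 1455, 1315 and 1413 in the knockouts. Every knockout library lay below every control library. The log2 fold change was -0.53 (SE 0.16, unadjusted p = 0.0087, adjusted p = 0.152 by edgeR), and it stayed below 0 with library totals at -0.13.

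mt-Co1, which encodes the catalytic subunit of complex IV with its heme and copper centres, was the most abundant member per kilobase. It had 3690, 3067 and 3343 CPM in the controls and 2801, 2281 and 2677 in the knockouts, again without overlap. The log2 fold change was -0.38 (SE 0.17, unadjusted p = 0.0492, adjusted p = 0.298 by edgeR), and with library totals it was 0.02. mt-Co1 made up 40.1% ± 1.07 (SD, n = 3) of mt-encoded member counts in control and 38.1% ± 1.098 in knockout, and these shares overlapped.

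The 7 complex I genes of the mitochondrial DNA ranged from a log2 fold change of -0.53 (mt-Nd3) to 0.09 (mt-Nd4l). mt-Nd1, which lies at the junction of the membrane arm with the matrix arm of the complex, had 933, 900 and 812 CPM in the controls and 847, 668 and 810 in the knockouts (log2 fold change -0.19, SE 0.17). mt-Nd2, a proton-pumping subunit, had 755, 662 and 586 CPM in the controls and 708, 611 and 748 in the knockouts (0.05, SE 0.17). Both sets overlapped.

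mt-Nd4 had 614, 663 and 582 CPM in the controls and 613, 541 and 565 in the knockouts (log2 fold change -0.11, SE 0.16). mt-Nd5 had 769, 562 and 735 CPM in the controls and 584, 617 and 707 in the knockouts (-0.11, SE 0.18). These are also proton-pumping subunits, and their groups overlapped. mt-Nd6 is the one protein gene transcribed from the other strand of the mitochondrial DNA. It had 128, 141 and 111 CPM in the controls and 105, 105 and 104 in the knockouts. Unstranded counts do not tell the strands apart, so these levels may include reads from the opposite strand. How much of them is mt-Nd6 RNA was not tested. The knockout libraries of mt-Nd6 lay below all controls, and the log2 fold change was -0.27 with TMM (SE 0.15, adjusted p = 0.404 by edgeR) and 0.14 with library totals.

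The other 6 mt-encoded genes were counted at far lower levels. mt-Co2 and mt-Co3, the other mt-encoded subunits of complex IV, had 17.7, 18.9 and 10.2 CPM in control against 13.9, 11.4 and 11.9 in knockout, and 10.2, 12.3 and 5.998 against 8.15, 5.80 and 5.71. mt-Atp6, part of the proton channel of ATP synthase, had 6.11, 6.70 and 4.87 CPM in the controls and 5.2, 5.02 and 5.18 in the knockouts. All 3 sets overlapped, with log2 fold changes of -0.34 (SE 0.22), -0.53 (SE 0.27) and -0.20 (SE 0.17). mt-Nd3 had 40, 26 and 24 counts in control and 34, 22 and 25 in knockout, and mt-Nd4l had 20, 13 and 8 against 19, 13 and 25, with log2 fold changes of -0.53 (SE 0.40) and 0.09 (SE 0.52). mt-Atp8, the smallest ATP synthase gene of the mitochondrial DNA, had 30, 13 and 17 counts in control and 12, 11 and 4 in knockout. Its CPM did not overlap between groups, and its log2 fold change was -1.49 (SE 0.59, unadjusted p = 0.032, adjusted p = 0.255 by edgeR). At so few counts these 3 genes carry the widest errors of the set.

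**Figure D1:**
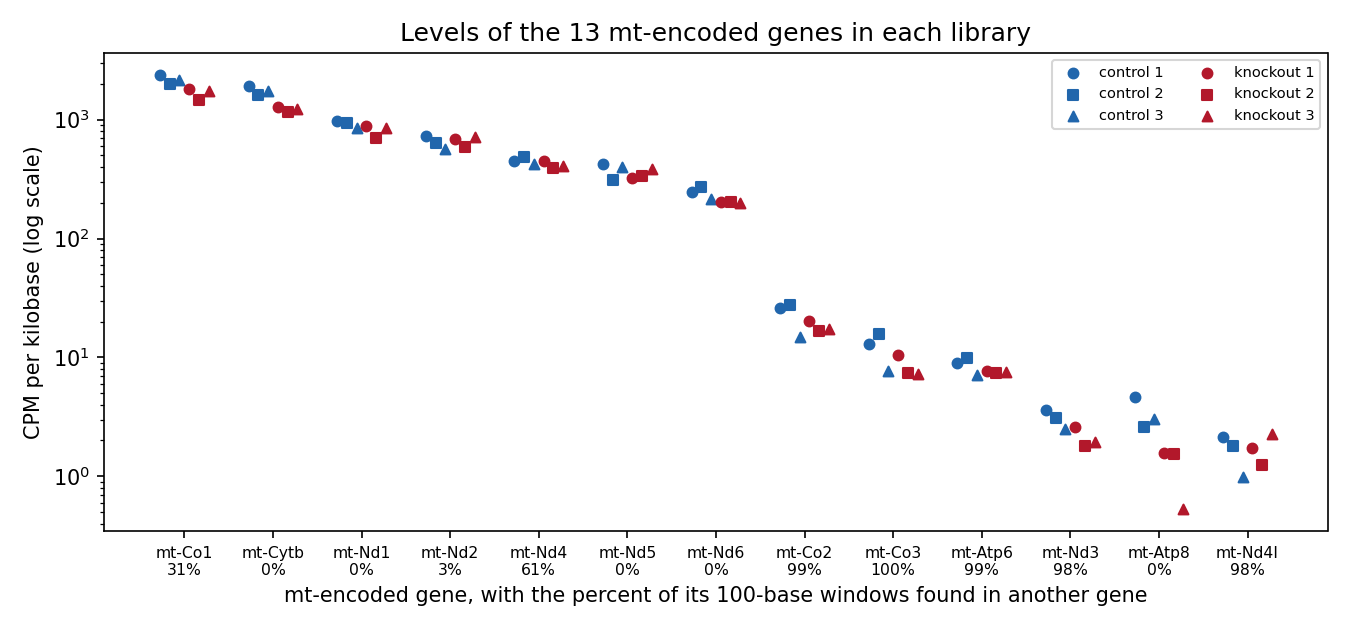
CPM per kilobase of exonic length (vertical axis, log scale) of each mt-encoded gene in each of the 6 libraries, ordered by mean level, with the percent of the gene's 100-base windows that occur letter for letter in another annotated gene under each name. 7 genes lie above 100 CPM per kilobase in every library and 6 lie below 30, and the 5 genes with at least 97.6% of their windows shared are all in the lower set.

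Most genes of the lower set had nearly all of their sequence repeated in another annotated gene. In mt-Co2, mt-Co3, mt-Atp6, mt-Nd3 and mt-Nd4l, between 97.6% and 99.9% of 100-base windows of the transcript were found letter for letter in an unprocessed pseudogene, a copy of mitochondrial DNA in a nuclear chromosome. Their mean level ran from 1.69 to 20.5 CPM per kilobase, against 223 to 1927 in 7 genes with 0% to 60.8% of windows shared. mt-Atp8, at 2.32 CPM per kilobase, had no shared window, and 21.1% of its length overlaps mt-Atp6. Windows were sought in annotated transcripts only, so a copy of mt-Atp8 outside the annotation would not have been seen. The counts are in the layout of STAR, which assigns to a gene only reads with a single placement and gives no gene to a read that fits several overlapping genes. Levels of these 6 genes are therefore uncertain. Reads placed at several sites made up 25.98%, 28.4% and 27.3% of all reads in the controls and 21.6%, 24.1% and 22.5% in the knockouts, and every control had a larger share than any knockout. How reads were placed among the copies was not tested.

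The copy of mt-Co2 named Gm28661 shows how close these sequences are, since all 681 coding bases were identical between them. Their first 60 coding bases, from the GENCODE M21 transcripts and without a capital because no base differs, read:
mt-Co2: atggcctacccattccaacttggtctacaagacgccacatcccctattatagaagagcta
Gm28661: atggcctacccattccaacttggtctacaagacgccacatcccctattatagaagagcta
Gm28661 was counted 933, 767 and 418 times in control and 873, 630 and 656 times in knockout, more often than mt-Co2 in the same tables per kilobase (37.2 against 22.8 CPM per kilobase in control). Summed CPM of mt-Co2 and Gm28661 was 47.1, 50.4 and 25.4 in control and 37.3, 29.4 and 29.4 in knockout, with overlap, as for mt-Co2 alone. Sums of mt-Co3 with Gm28437 and of mt-Atp6 with Gm10925 overlapped between groups as well.

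Summed over all 13 genes, the mt-encoded transcripts separated the groups or not according to the scale. Summed CPM with TMM scaling was 9126, 7893 and 8176 in control and 7143, 6162 and 7048 in knockout, means of 8398 ± 646 and 6784 ± 541 (SD, n = 3), without overlap. As a share of all gene counts, however, the 13 genes held 0.927%, 0.619% and 0.661% in control and 0.851%, 0.689% and 0.817% in knockout, means of 0.736% ± 0.167 and 0.786% ± 0.0853, and these groups overlapped. Counting error was small beside this spread, with an exact binomial 95% interval from 0.923% to 0.930% for control replicate 1, which covers counting error only.

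Nuclear members showed the reverse dependence on scaling. Their summed CPM was 2284, 3159 and 2891 in control and 2502, 2752 and 2485 in knockout (2778 ± 449 and 2580 ± 149, SD, n = 3), with overlap. Their share of gene counts was 0.232%, 0.248% and 0.234% in control and 0.298%, 0.308% and 0.288% in knockout (0.238% ± 0.00879 and 0.298% ± 0.00984), and every knockout library was higher. Outside the digestive enzyme genes the nuclear share was 1.09% ± 0.0925 in control and 1.149% ± 0.0447 in knockout, and the groups overlapped. Counts of mt-encoded members were 3.11 ± 0.787 times those of nuclear members in control and 2.64 ± 0.350 times in knockout, with overlap.

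**Figure D2:**
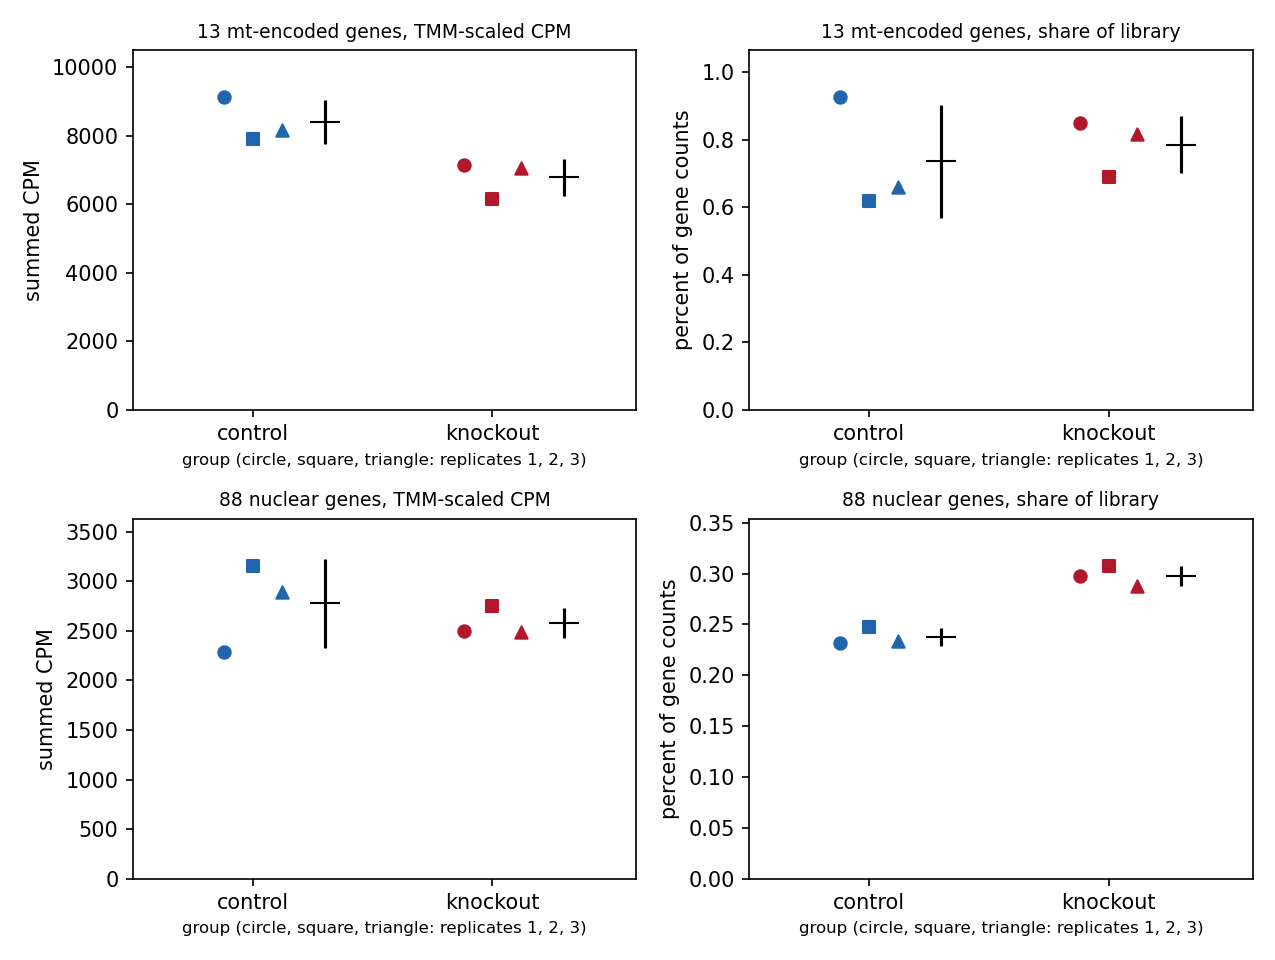
Summed CPM with TMM scaling (left) and percent of all gene counts (right) for the 13 mt-encoded genes (top) and the 88 nuclear genes (bottom), by group, with replicates 1, 2 and 3 as circle, square and triangle and a cross for the mean ± SD of 3 libraries. The mt-encoded groups separate in CPM (8398 against 6784) and overlap as a share of counts, while the nuclear groups overlap in CPM and separate as a share of counts (0.238% against 0.298%).

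The nuclear members went in both directions with TMM scaling, and nearly all lay on the higher side in knockout with library totals. With TMM scaling 30 of 79 log2 fold changes were above 0 and 49 below, with a median of -0.08 and a range from -0.51 (Uqcr10) to 0.54 (Ndufb3), whereas with library totals 76 were above 0 and the median was 0.35. The median of all genes moved as well, from 0.02 with TMM to 0.43 with library totals. Relative to all genes the nuclear median was -0.10 with TMM and -0.08 with library totals, so counts above 0 with library totals, here and by complex below, include that shift of all genes. With library totals 15 nuclear members (19.0%) were called higher, against 11% of all genes. Groups did not overlap for 6 members with knockout higher (7.59%) and for 3 with knockout lower (3.80%), against 12% and 10.9% of all genes. Both shares were below the background.

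Complex I, with 36 nuclear members all tested, was divided evenly with TMM scaling, with 18 log2 fold changes above 0, 18 below and a median of 0.00085, while all 36 were above 0 with library totals. Ndufb11, a membrane arm subunit and the most abundant per kilobase in the complex, had 42.1, 63.7 and 50.2 CPM in the controls and 41.8, 47.5 and 41.0 in the knockouts (log2 fold change -0.26, SE 0.17). Ndufv2, an iron-sulfur subunit next to the NADH site, had the lowest log2 fold change, -0.29 (SE 0.16), with 24.4, 33.2 and 32.8 CPM in the controls and 22.3, 26.5 and 25.1 in the knockouts. Both overlapped between groups.

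Ndufb3, a small membrane arm subunit, had the highest log2 fold change of all nuclear members. Its level was 5.197, 6.90 and 5.89 CPM in the controls and 7.99, 10.8 and 7.40 in the knockouts, with every knockout library above every control. The log2 fold change was 0.54 (SE 0.19, adjusted p = 0.206, and 0.0658 with the replicate block, both by edgeR). Ndufa3, another accessory subunit of the membrane arm, had 9.54, 9.53 and 9.02 CPM in the controls and 13.5, 13.8 and 11.2 in the knockouts, with a log2 fold change of 0.45 (SE 0.13, adjusted p = 0.146, and 0.0784 with the block). It falls outside the naming rule and was named for its lowest p after its values were seen, as were the further members given below as not overlapping. The remaining complex I member without overlap was Ndufa8, at 8.57, 9.45 and 10.8 CPM in control against 11.6, 10.99 and 10.9 in knockout, and its gap between groups was narrow.

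Complex II, succinate dehydrogenase, has 4 subunits that are also a step of the tricarboxylic acid cycle. Sdha, the flavin subunit that oxidises succinate, had 48.9, 49.8 and 48.9 CPM in the controls and 49.9, 58.1 and 54.2 in the knockouts, without overlap by a small margin, and a log2 fold change of 0.14 (SE 0.13). Sdhb, the iron-sulfur subunit and the most abundant per kilobase of the 4, had 40.5, 59.3 and 50.8 CPM in the controls and 39.4, 46.2 and 38.9 in the knockouts (-0.27, SE 0.17). Sdhc and Sdhd, the membrane anchors, had log2 fold changes of -0.24 and 0.08.

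Complex III held the nuclear members that stayed on the lower side in knockout under either scaling, though none was called. With TMM 7 of 9 log2 fold changes were below 0 (median -0.14), and with library totals 3 of 9, Uqcr10, Uqcrh and Uqcrq, were the only nuclear members of any complex below 0. All 4 nuclear members with a lower level at an unadjusted p under 0.05 by edgeR belonged to it: Uqcr10, Uqcrh, Uqcrq and Uqcrc2. They were 4 of 79 nuclear members tested, against 8.27% of all genes, and their grouping by complex was made after the values were seen. Uqcrc2 was not below 0 with library totals. Uqcr10, a small accessory subunit, had 16.1, 25.2 and 21.1 CPM in the controls and 14.7, 17.0 and 12.2 in the knockouts, and the groups overlapped through control replicate 1. Its log2 fold change was -0.51 (SE 0.19, adjusted p = 0.242, and 0.0791 with the block, both by edgeR). Uqcrq, the most abundant per kilobase in the complex, had 74.8, 121 and 86.7 CPM in the controls and 71.6, 73.6 and 60.6 in the knockouts, without overlap.

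Uqcrh, the hinge protein that holds cytochrome c1, had 46.9, 66.6 and 60.997 CPM in the controls and 41.8, 46.7 and 37.7 in the knockouts. Uqcrc2, a core subunit on the matrix side, had 39.2, 45.4 and 48.3 CPM in the controls and 31.5, 35.7 and 36.0 in the knockouts. The groups did not overlap in either gene, but in Uqcrh control replicate 1 and knockout replicate 2 were nearly equal. Log2 fold changes were -0.46 for Uqcrq (SE 0.20), -0.47 for Uqcrh (SE 0.17) and -0.36 for Uqcrc2 (SE 0.14), with edgeR adjusted p-values of 0.292, 0.22 and 0.238. Uqcrb, at the other end, had 12.2, 16.9 and 14.6 CPM in the controls and 15.3, 16.1 and 14.7 in the knockouts (0.08, SE 0.15), and the summed CPM of the 9 genes was 406 ± 70.4 in control and 339 ± 20.5 in knockout (SD, n = 3), with overlap. Cycs, which encodes the soluble cytochrome c that carries electrons from complex III to complex IV, had 15.8, 17.2 and 12.5 CPM in the controls and 14.6, 17.3 and 18.5 in the knockouts (0.15, SE 0.16).

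In complex IV, 12 of 20 nuclear members were tested, and 4 log2 fold changes were above 0 and 8 below with TMM scaling (median -0.10), while all 12 were above 0 with library totals. Cox6a1 was the most abundant per kilobase, with 41.0, 71.8 and 58.7 CPM in the controls and 55.3, 60.3 and 51.6 in the knockouts (-0.04, SE 0.20). Cox7a2 had the lowest log2 fold change, -0.27 (SE 0.18), with 24.9, 38.9 and 30.6 CPM in the controls and 27.2, 28.3 and 22.6 in the knockouts. Both overlapped. Cox5b, a zinc-binding subunit, was the one member of the complex without overlap, at 16.7, 22.02 and 20.1 CPM in the controls and 26.6, 28.6 and 24.6 in the knockouts, with a log2 fold change of 0.44 (SE 0.14, adjusted p = 0.178, and 0.0757 with the block, both by edgeR).

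Several complex IV subunits are made from alternative genes, one used in most tissues and others known from muscle, lung or testis. The widely used forms carried nearly all of the counts here. Cox4i1 had 75.3 ± 16.1 CPM in control and 63.7 ± 1.61 in knockout (SD, n = 3), while Cox4i2 had between 2 and 10 counts per library. Cox6b1 had 30.7 ± 6.31 and 32.2 ± 2.36 CPM, and Cox6b2 at most 11 counts. Cox7b had 49.8 ± 9.94 and 45.6 ± 5.18 CPM, and Cox7b2 at most 2 counts. Cox8a had 33.4 ± 6.59 and 39.9 ± 5.83 CPM. Ndufa4, which is now placed in complex IV, had 33.1 ± 6.26 and 31.4 ± 2.17 CPM, and its relative Ndufa4l2 between 1 and 18 counts.

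The muscle forms were near the limit of detection. Cox6a2 had 8, 4 and 1 counts in control and 1, 4 and 2 in knockout, and Cox7a1 had 6, 2 and 0 against 17, 11 and 7. Cox8b had 1, 16 and 22 counts in control and 4, 3 and 1 in knockout, and Cox8c, the testis form, had 0 in every library, which allows at most 0.0881 to 0.0967 CPM of gene counts before TMM scaling, the level of 3 counts. None of these passed the filter on low counts, with the exception that without control replicate 1 Cox8b was tested and called lower (-3.27, adjusted p = 0.049 by edgeR), against 1.88% of all genes in that fit. Summed CPM of 9 muscle markers was 37.0, 3.82 and 4.29 in control and 31.01, 11.7 and 4.48 in knockout, with Myh4 and Myl1 at no more than 3 counts in any library, and its part in these counts was not tested.

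ATP synthase had 17 of 18 nuclear members tested, with 3 log2 fold changes above 0, 14 below and a median of -0.16 under TMM scaling, while all 17 were above 0 with library totals. Atp5b, the catalytic beta subunit and the most abundant per kilobase among nuclear ATP synthase genes, had 253, 333 and 298 CPM in the controls and 260, 289 and 299 in the knockouts (-0.06, SE 0.16). Atp5k, a small membrane subunit, was the one member without overlap, with 7.62, 8.01 and 8.98 CPM in the controls and 13.1, 11.7 and 9.12 in the knockouts. Its log2 fold change was 0.46 (SE 0.16, adjusted p = 0.21 by edgeR), and knockout replicate 3 lay just above the highest control. Atp5o, a stalk subunit, had the highest value, 0.50 (SE 0.31), from 2.30, 2.46 and 1.71 CPM in the controls and 4.26, 2.71 and 2.17 in the knockouts. Its level is uncertain, because 47.9% of its exonic length overlaps another gene, including a second Atp5o model with 0 counts in every library.

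**Figure D3:**
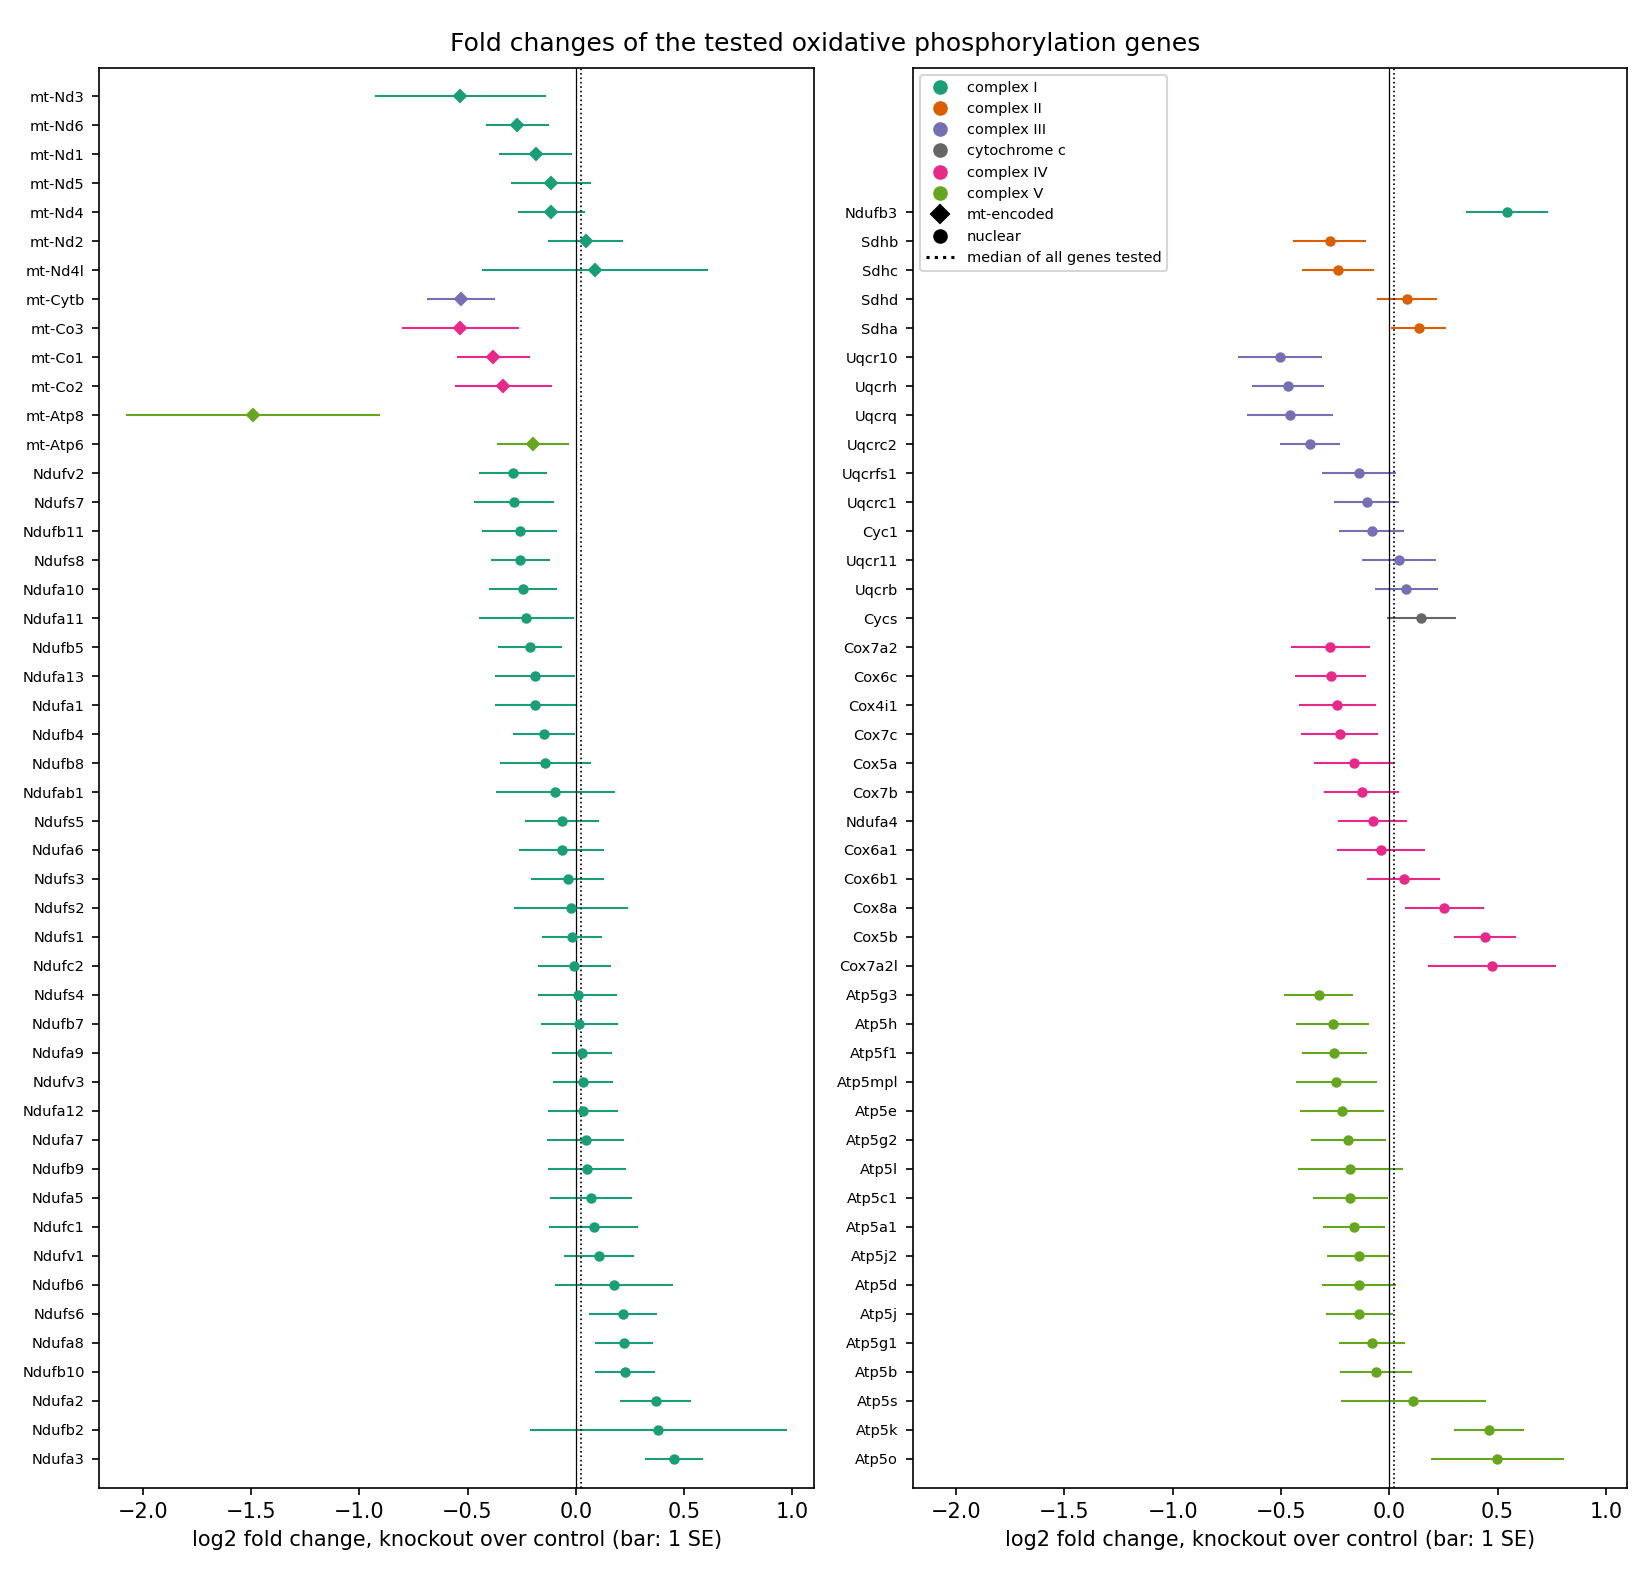
Log2 fold change of knockout over control with TMM scaling (horizontal axis, bar 1 SE) for the 92 tested members, coloured by complex, with diamonds for mt-encoded and circles for nuclear genes and a dotted line at the median of all genes tested. Values run from -1.49 (mt-Atp8) to 0.54 (Ndufb3), no member was called, and most complex III and ATP synthase genes lie left of the line. When libraries are scaled by their totals, the sign about 0 turns for 46 of 79 nuclear members, and the median of all genes itself moves to 0.43.

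The membrane ring of ATP synthase is built from a c-subunit that 3 genes, Atp5g1, Atp5g2 and Atp5g3, encode with different import sequences and the same mature protein. Over the last 225 coding bases, which hold the mature part, Atp5g1 and Atp5g2 were 84.9% identical, Atp5g1 and Atp5g3 80.0% and Atp5g2 and Atp5g3 78.7%. The last 60 coding bases, from the GENCODE M21 transcripts, are shown because they let reads of the 3 genes be told apart, with capitals at the 18 positions where the genes are not all alike:
Atp5g1: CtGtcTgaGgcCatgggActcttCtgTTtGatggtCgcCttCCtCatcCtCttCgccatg
Atp5g2: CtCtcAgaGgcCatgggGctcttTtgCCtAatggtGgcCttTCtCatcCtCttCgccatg
Atp5g3: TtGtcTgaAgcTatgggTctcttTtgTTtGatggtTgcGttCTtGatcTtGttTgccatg
Atp5g3 had 50.7, 70.7 and 68.9 CPM in the controls and 50.3, 53.0 and 48.4 in the knockouts, the lowest log2 fold change of the nuclear ATP synthase genes at -0.33 (SE 0.16, adjusted p = 0.354 by edgeR). Atp5g2 had 27.4, 37.7 and 42.6 against 29.4, 31.6 and 33.4 CPM, and Atp5g1 36.8, 50.6 and 40.4 against 38.4, 40.9 and 41.7 CPM, with log2 fold changes of -0.19 (SE 0.17) and -0.08 (SE 0.15). Control replicate 1 was the lowest library for both genes, and for all 3 the groups overlapped.

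While no member was called, copies of members in the nuclear genome were. Of 60 other genes that shared a 100-base window with a member, 27 were tested and 2 were called lower in knockout, against 0.48% of all genes tested. Both were processed pseudogenes, which are copies of a spliced messenger RNA inserted elsewhere in the genome. Gm10039 matches the coding sequence of Atp5g1 with 1 mismatch in 408 bases (99.8% identity). It had 73, 108 and 48 counts in control and 5, 7 and 2 in knockout, and fell by 4.42 on the log2 scale (SE 0.58, adjusted p = 0.0148 by edgeR). Gm15920 matches Ndufa12, an accessory subunit of complex I, over 399 bases at 99.5% identity, and fell by 3.58 (SE 0.55, adjusted p = 0.0251), from 38, 39 and 26 counts to 2, 5 and 4. Atp5g1 itself had a log2 fold change of -0.08 and Ndufa12 one of 0.03 (SE 0.16), with 12.2, 18.6 and 15.2 CPM in the controls and 16.2, 15.2 and 15.7 in the knockouts for Ndufa12. Summed with its copy, neither gene separated the groups.

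Another copy, Gm6969, followed single libraries and not the groups. It matches Cox7a2l, which joins complexes III and IV into supercomplexes, over 339 bases with 6 mismatches (98.2% identity). Gm6969 had 227, 179 and 2 counts in control and 3, 3 and 536 in knockout. Cox7a2l was lowest in the controls that had Gm6969 counts, with 32.5, 41.6 and 74.6 CPM in the controls and 71.0, 75.1 and 60.5 in the knockouts. Its log2 fold change, 0.47 (SE 0.30), was the highest in complex IV and was not called (adjusted p = 0.482 by edgeR). Summed CPM of Cox7a2l and Gm6969 was 39.6, 49.0 and 74.7 in control and 71.1, 75.2 and 74.9 in knockout, with overlap. How reads were divided between each gene and its copy was not tested.

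The stretches where each copy can be told from its gene are short, and 60 bases of each pair are shown from the GENCODE M21 transcripts, with the differing base in capitals:
Atp5g1: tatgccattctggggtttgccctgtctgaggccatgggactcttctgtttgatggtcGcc
Gm10039: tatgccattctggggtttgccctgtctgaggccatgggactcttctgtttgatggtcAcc
Ndufa12: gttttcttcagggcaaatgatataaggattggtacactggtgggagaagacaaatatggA
Gm15920: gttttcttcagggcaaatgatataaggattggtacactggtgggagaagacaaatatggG
Cox7a2l: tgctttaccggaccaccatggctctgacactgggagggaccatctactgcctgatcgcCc
Gm6969: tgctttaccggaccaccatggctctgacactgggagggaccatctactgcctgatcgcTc
In Atp5g1 and Gm10039 that base is the only difference over the coding sequence. Among nuclear members, 57 of 88 had no shared 100-base window, 18 had more than 10% of windows shared and 2 more than 50%, Atp5l at 69.0% and the second Atp5o model.

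**Figure D4:**
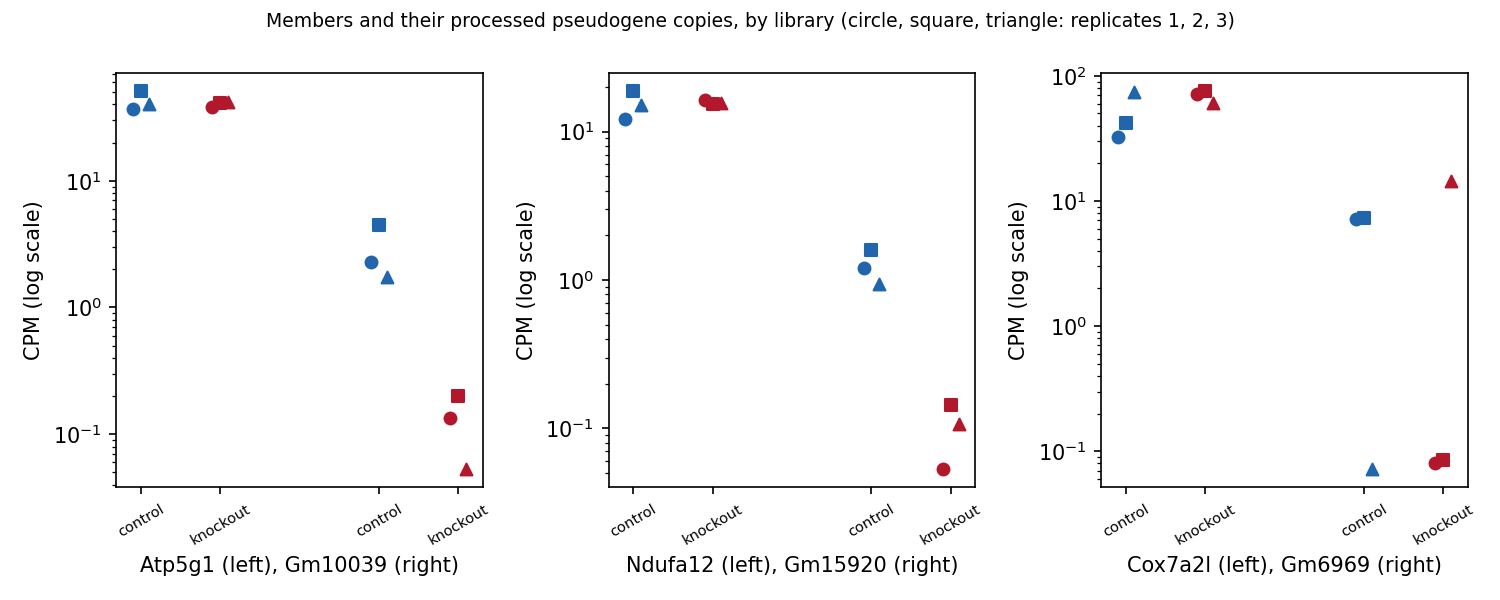
CPM (log scale) of Atp5g1, Ndufa12 and Cox7a2l (left in each panel) and of their processed pseudogene copies Gm10039, Gm15920 and Gm6969 (right), by group, with replicates 1, 2 and 3 as circle, square and triangle. Gm10039 and Gm15920 lie lower in all knockouts while Atp5g1 and Ndufa12 overlap between groups, and Gm6969 is high in control replicates 1 and 2 and knockout replicate 3.

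With TMM scaling, the nuclear members varied together across libraries more than between groups. Their summed share of gene counts, by contrast, separated the groups, at 0.238% ± 0.00879 in control and 0.298% ± 0.00984 in knockout (SD, n = 3). In TMM-scaled CPM, control replicate 1 was the lowest of the 6 libraries for 46 of 79 tested members, and control replicate 2 was the highest for 49. The median member lay 0.23 below its own mean over the 6 libraries in control replicate 1 on the log2 scale, 0.27 above it in control replicate 2 and 0.09 above it in control replicate 3. In knockout replicates 1 to 3 its difference from the mean was -0.07, 0.06 and -0.07. Members most like this median profile over the 6 libraries, by Pearson's r of log2 CPM, were Cyc1 (r = 0.99), the complex III subunit that carries heme c1, Ndufs5 (0.98) and Atp5j (0.98). Ndufa3 (-0.16), Atp5o (-0.15) and Atp5k (-0.03) were least like it. These r values describe genes that share libraries and enter the median themselves.

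The mt-encoded genes did not follow that order of libraries. In TMM-scaled CPM, control replicate 1 was the highest library for 7 of the 13 and the lowest for none. Between same-numbered libraries, the median log2 difference of nuclear members was 0.16 in pair 1 (60 of 79 higher in knockout), -0.21 in pair 2 (20 higher) and -0.18 in pair 3 (20 higher). For mt-encoded members it was -0.32 (0 of 13 higher), -0.43 (1 higher) and -0.06 (4 higher). By median, the nuclear members thus lay above the same-numbered control in the pair that includes control replicate 1 and below it in both other pairs. The labels do not say whether same-numbered libraries belong together.

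The nuclear median, -0.08 with TMM scaling and all libraries, changed with the controls that were kept. Without control replicate 1 it was -0.24, without control replicate 2 its sign turned and it was 0.03, and with a term for the 2 libraries with high Xist it was 0.20 with 67 of 79 members above 0. Both of those libraries are controls and no knockout had high Xist. The group difference in that fit therefore compares the knockouts with control replicate 1 alone. The mt-encoded median stayed between -0.36 and -0.19 when any 1 library was left out and was -0.29 with the Xist term. With library totals in place of TMM both medians were above 0.

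**Figure D5:**
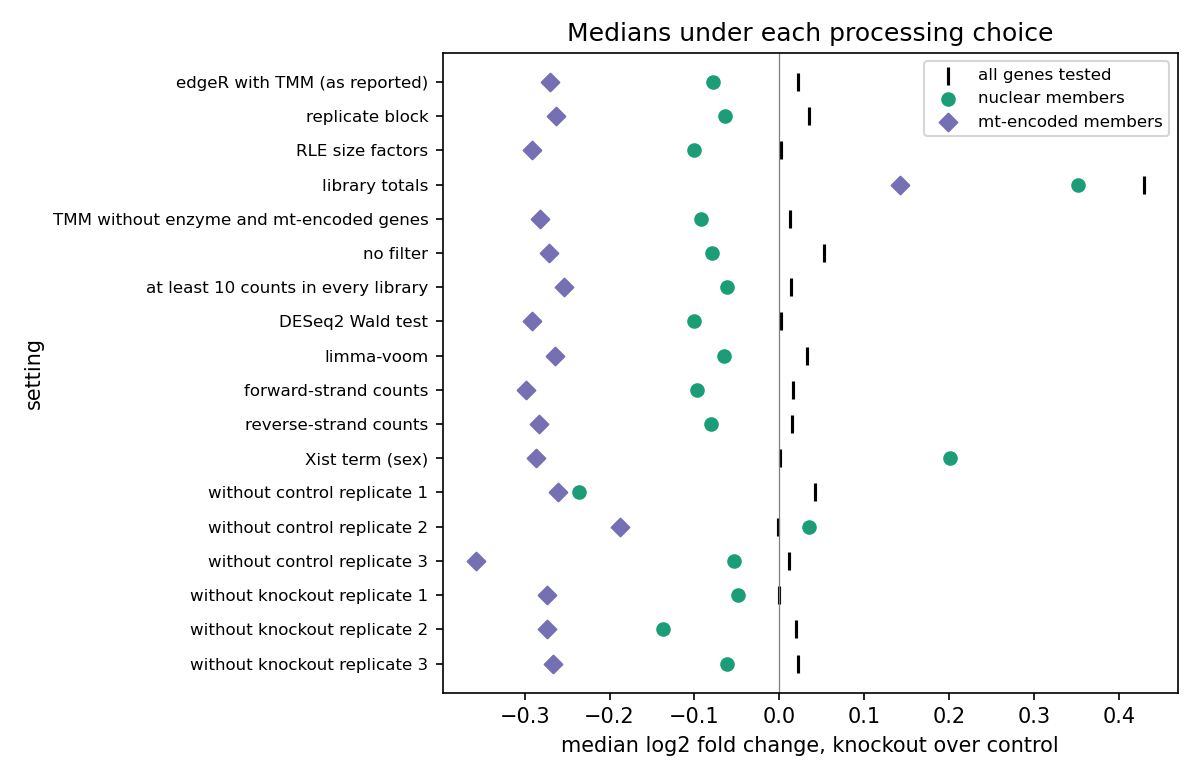
Median log2 fold change of knockout over control (horizontal axis) for all genes tested (bars), nuclear members (circles) and mt-encoded members (diamonds), under the reported setting and each processing alternative (vertical axis). The mt-encoded median lies below 0 in every setting shown except library totals (0.14), while the nuclear median runs from -0.24 without control replicate 1 to 0.35 with library totals.

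The promoters of nuclear members were read for the letters that NRF1, GABP and YY1 bind, since these factors are known to regulate many respiratory chain genes. RefSeq windows of 300 bases (build GRCm38.p6, 250 bases before to 50 after each transcript start) were found for 70 of 87 nuclear symbols and gave 75 windows. The NRF1 letters, GCGCA and GCGC with any 1 base between them, were searched on both strands. They were in 24.0% of member windows, in 4.60% of all 32851 windows and in 6.38% of protein-coding windows. CCGGAAG, the core that GABP shares with other ETS factors, was in 21.3% against 8.86% of all and 11.6% of protein-coding windows. AANATGGCG, for YY1, was in 13.3% against 2.38% of all and 3.12% of protein-coding windows. The last bases of the GABP letters can also begin a YY1 match. At least 1 of the 3 was in 50.7% of member windows, in 14.2% of all windows and in 18.8% of protein-coding windows.

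A pair of promoters with several matches, those of a gene without overlap and of the most abundant complex IV gene, are printed over the 170 bases before the start, with matches on either strand in capitals:
Sdha: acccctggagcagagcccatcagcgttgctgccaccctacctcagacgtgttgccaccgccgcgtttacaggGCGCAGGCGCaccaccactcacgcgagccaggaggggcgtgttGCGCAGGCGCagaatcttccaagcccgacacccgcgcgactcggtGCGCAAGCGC
Cox6a1: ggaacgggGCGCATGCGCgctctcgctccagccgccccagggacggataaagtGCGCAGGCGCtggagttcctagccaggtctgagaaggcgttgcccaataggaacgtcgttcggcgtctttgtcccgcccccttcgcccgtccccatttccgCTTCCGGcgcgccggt
The Sdha stretch lies at chr13:74350241-74350410 on the minus strand and has 3 NRF1 matches, and the Cox6a1 stretch lies at chr5:115348959-115349128 on the minus strand and has 2 NRF1 matches and 1 GABP match. Neither gene was called. A match is a description of the letters and does not show that a factor bound there.

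Genes that build or feed the oxidative phosphorylation system were also mostly without a call. Of 46 assembly factor genes 43 were tested and none was called, and with the replicate block 1 was called higher, against 3.4% of all genes. That gene was Acad9, which is needed to assemble complex I, with 5.197, 6.20 and 5.67 CPM in the controls and 7.85, 9.33 and 9.60 in the knockouts (0.65, SE 0.15, adjusted p = 0.0823, and 0.0295 with the block, both by edgeR). The groups did not overlap.

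Genes that maintain and express the mitochondrial DNA numbered 30, of which 29 were tested and none was called with or without the block, with 9 log2 fold changes above 0, 20 below and a median of -0.12 under TMM scaling. At an unadjusted p under 0.05 by edgeR, Tfam, Grsf1, Trmt10c and Fastkd3 were lower in knockout and Mterf3 was higher, against 8.27% and 8.45% of all genes. These genes were named after their values were seen. Tfam, which packages mitochondrial DNA and starts its transcription, had 8.95, 9.61 and 8.58 CPM in the controls and 6.22, 6.91 and 7.24 in the knockouts (-0.41, SE 0.13, adjusted p = 0.181 by edgeR). Grsf1, an RNA-binding protein of mitochondrial RNA granules, had 29.6, 35.5 and 44.5 CPM in the controls and 23.0, 27.1 and 28.2 in the knockouts (-0.49, SE 0.17, adjusted p = 0.214). In both genes every knockout library lay below every control with TMM scaling. Tfam counts before scaling were 284, 234 and 236 in the controls and 232, 242 and 270 in the knockouts, and these overlapped. Values with library totals are not given for either gene.

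Among 17 regulators of mitochondrial gene expression, 16 were tested and none was called in either fit. With TMM scaling 6 log2 fold changes were above 0 and 10 below (median -0.11). Groups did not overlap for 2 genes with knockout higher (12.5%) and 3 with knockout lower (18.8%), against 12% and 10.9% of all genes. Ppargc1a, the coactivator PGC-1alpha, had 3.06, 2.55 and 2.62 CPM in the controls and 3.86, 4.14 and 4.88 in the knockouts, without overlap (0.65, SE 0.20, adjusted p = 0.156 by edgeR). Pparg, a nuclear receptor of lipid metabolism, had 0.976, 1.36 and 1.42 CPM in the controls and 0.536, 0.742 and 0.375 in the knockouts, also without overlap (-1.18, SE 0.43, adjusted p = 0.228 by edgeR). Both genes were named after their values were seen, as the member of the list with the lowest p in each direction. All 14 tricarboxylic acid cycle genes (median -0.10) and 16 glycolysis genes (median -0.0031) were tested, and none was called in either fit. Of the marker lists for cell types, none held a call without the block. With it, 3.4% of all genes were called higher and 2.58% lower, and directions within a list were mixed. Among 12 acinar markers Rbpjl was called higher and Cpb1 and Ptf1a lower. Among 8 duct markers Krt7, Epcam and Spp1 were called higher and Krt19 and Muc1 lower. From the other lists Pcsk2, Fabp4, Adgre1, C1qa, C1qb and C1qc, each higher, were among those called.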

How the data were processed

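The authors deposited 1 table of raw gene counts per library, whole reads or pairs in the layout of STAR, with unstranded counts and counts for each strand. STAR 2.7.10a and the build GRCm39 (mm39) are named in the submitters' processing notes, and the annotation behind the counts is not given in the sources used here. Per the labels' protocols, libraries were made from poly-A enriched RNA. Unstranded counts were used. Rows outside genes were left out of library sizes, among them reads placed at several sites. Symbols, biotypes and lengths came from GENCODE M21 (GRCm38), which held 52133 (94.1%) of the gene identifiers, so no gene coordinates are given other than those of RefSeq promoters. Genes passing filterByExpr were fitted with edgeR 4.0.16 in R 4.3.3 (TMM, robust quasi-likelihood F test, Benjamini-Hochberg over all 13115 genes, called at adjusted p under 0.05), which was tested on simulated data. The SE is the size of the log2 fold change divided by the square root of F. limma 3.58.1 and DESeq2 1.42.0 served as alternatives. No library pair agreed within sampling noise (lowest chi-square per degree of freedom 26.3). The labels give the groups the same replicate numbers but do not say what the number marks. Deviations from group means correlated at 0.63, 0.45 and 0.28 for same-numbered libraries and at -0.50 to 0.21 otherwise. The number was therefore also fitted as a block. Deviations within a group are not independent of each other and come from these same libraries, so the correlations do not establish pairs. A copy was any gene whose annotated transcript, on either strand, held a 100-base window of a member's longest protein-coding transcript. Named were Trip12, all mt-encoded members, any called member, the members of each complex with the highest and lowest log2 fold change and the highest level per kilobase, complex IV and c-subunit isoform sets, and called genes of the pathway and cell type marker lists, while digestive enzyme genes served only for library shares and scaling. Members, lists and rule were chosen with earlier results of these data known. Of the called markers, 1 is not reported here.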

Additional observations from a re-analysis of the deposited data

How the results depend on the processing

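No member was called in either direction with the replicate block, RLE size factors, TMM computed without enzyme and mt-encoded genes, either filter, limma-voom or either strand's counts. Forward- and reverse-strand counts tested 12914 and 12927 genes and come from the same reads as the unstranded counts, so they are not an independent check. Library totals gave 15 nuclear calls, all higher, with medians of 0.35 (nuclear) and 0.14 (mt-encoded), and DESeq2 gave 2 mt-encoded calls. The Xist term gave a nuclear median of 0.20, in a fit whose group difference rests on control replicate 1 alone among the controls. With 1 library left out, nuclear calls ranged from 0 to 1, mt-encoded calls from 0 to 0, the nuclear median from -0.24 to 0.03 and the mt-encoded median from -0.36 to -0.19. The cause of these differences was not tested.

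Over all genes, 124 were called (61 higher, 63 lower), 785 with the replicate block that pairs the libraries, 1519 with library totals (1442 higher, 77 lower), 850 without a filter, 210 with a minimum of 10 counts per library, 594 with DESeq2, 21 with the Xist term and 20 to 461 with 1 library left out (461 without control replicate 1, 20 without control replicate 2). The block changed no call of a member.

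The difference in the mt-encoded share of counts, knockout minus control, was 0.0501 percentage points and became -0.307 outside digestive enzymes. With 1 library left out it ranged from -0.0080 to 0.146, and the nuclear difference from 0.0552 to 0.0652. Over 92 members and 17 alternatives, 1399 of 1558 fold changes differed from the reported one by less than the replicate spread, 142 by more, and 17 became calls. Signs of uncalled members turned for 7 of 13 mt-encoded and 46 of 79 nuclear members with library totals, for 37 nuclear members with the Xist term, and for 16 and 17 without control replicate 1 or 2. Members under about 3 counts per library are beyond what this depth resolves.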
